A study of Equus caballus with 15 samples.

Results

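The genes described here encode the enzymes and receptors of prostaglandin E2 and leukotriene B4 signalling in equine macrophages. They were chosen by symbol (PTGS1, PTGS2, PTGES, PTGES2, PTGES3, PTGER2, PTGER4, ALOX5, ALOX5AP and LTA4H), and all 10 were found once each among the 16932 listed genes. Macrophages were grown for 5 days with human M-CSF at 30 ng/ml from blood mononuclear cells of 2 geldings, one aged 3 years and the other 5, and 3 libraries were sequenced in each of 5 conditions. Untreated macrophages received no IL-1ß, while the other conditions all received IL-1ß at 10 ng/ml for 24 h, either alone or together with an orthobiologic therapy (OT) that made up 25% of the medium. The OTs were autologous conditioned serum (ACS), medium conditioned by bone marrow mesenchymal stromal cells (MSC-CM), and lysed platelet rich plasma (PRP lysate). All were prepared from the same 3 other horses, aged 2 to 5 years. The OT libraries therefore replicate the product. How the cells of the 2 macrophage donors were divided over the libraries is not stated. The IL-1ß and untreated libraries are described by the study as technical replicates, so p-values measure a spread that is partly technical.

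Prostaglandin E2 is made from arachidonic acid in steps. Phospholipases A2 free the fatty acid from membranes, the cyclooxygenases PTGS1 (COX-1) and PTGS2 (COX-2) turn it into prostaglandin H2, and the synthases PTGES, PTGES2 and PTGES3 isomerise that to prostaglandin E2, which acts through the cAMP-coupled receptors EP2 (PTGER2) and EP4 (PTGER4). In the other branch 5-lipoxygenase (ALOX5), assisted by its activating protein (ALOX5AP), makes leukotriene A4, and LTA4H hydrolyses it to the neutrophil attractant leukotriene B4. Non-steroidal anti-inflammatory drugs given to horses with joint disease act on the cyclooxygenases, and IL-1ß is a textbook inducer of PTGS2 and PTGES in many cell types. Concentrations of prostaglandin E2 in the supernatants were not analysed here.

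The libraries held 28410734 to 47894071 reads counted on genes, so that 1 read was worth 0.0209 to 0.0352 CPM, the count scaled to a common library total. Macrophage markers were present in every library, with CD68 at 1340 to 2157 CPM and MRC1 at 515 to 3394 CPM. CD14 reached only 4.32 CPM. Markers of T cells summed to 595 to 1696 CPM and those of NK cells to 206 to 1056 CPM, so the cultures also held lymphocyte RNA. In such bulk RNA, fewer cells of a type and less RNA per cell cannot be told apart. On the first principal component of all tested genes, which held 55.4% of the variance, 3 libraries stood apart: IL-1ß replicate 3 (score -103), PRP lysate replicate 1 (-51.7) and MSC-CM replicate 1 (-20.7), against -8.15 to 26.6 in the other 12. These 3 also had the highest mean level of ribosomal protein genes, and several limma differences are also given without them. The cut was chosen after the scores were seen, and MSC-CM replicate 1 lay nearest to the other 12 libraries.

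No gene of the set passed the test used, in any comparison. The test was limma on log2(CPM + 1) across 11628 genes that averaged 1 CPM or more, and a gene was called at a Benjamini-Hochberg adjusted p of at most 0.05 with a difference of at least 2-fold on that scale, which shrinks the changes of genes with few CPM. It called 0 of the 9 genes tested in each of the 10 comparisons of conditions, and 11 of the 90 tests had an unadjusted p of at most 0.05. PTGS1, with a mean of 0.608 CPM, lay under the minimum and was tested on the recovered reads only, with edgeR and DESeq2. edgeR called 0 of its 100 tests, of which 15 had an unadjusted p of at most 0.05. DESeq2 made 2 calls, ALOX5 lower with PRP lysate than with IL-1ß (4.57% of all genes it tested were called there) and PTGS1 lower with ACS than with MSC-CM (2.14%). In 59 of the 90 limma tests the 95% confidence interval lay within 2-fold in both directions, which held in all 10 comparisons for PTGES2, PTGES3 and LTA4H and in 0 for PTGS2 and ALOX5.

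**Figure D1:**
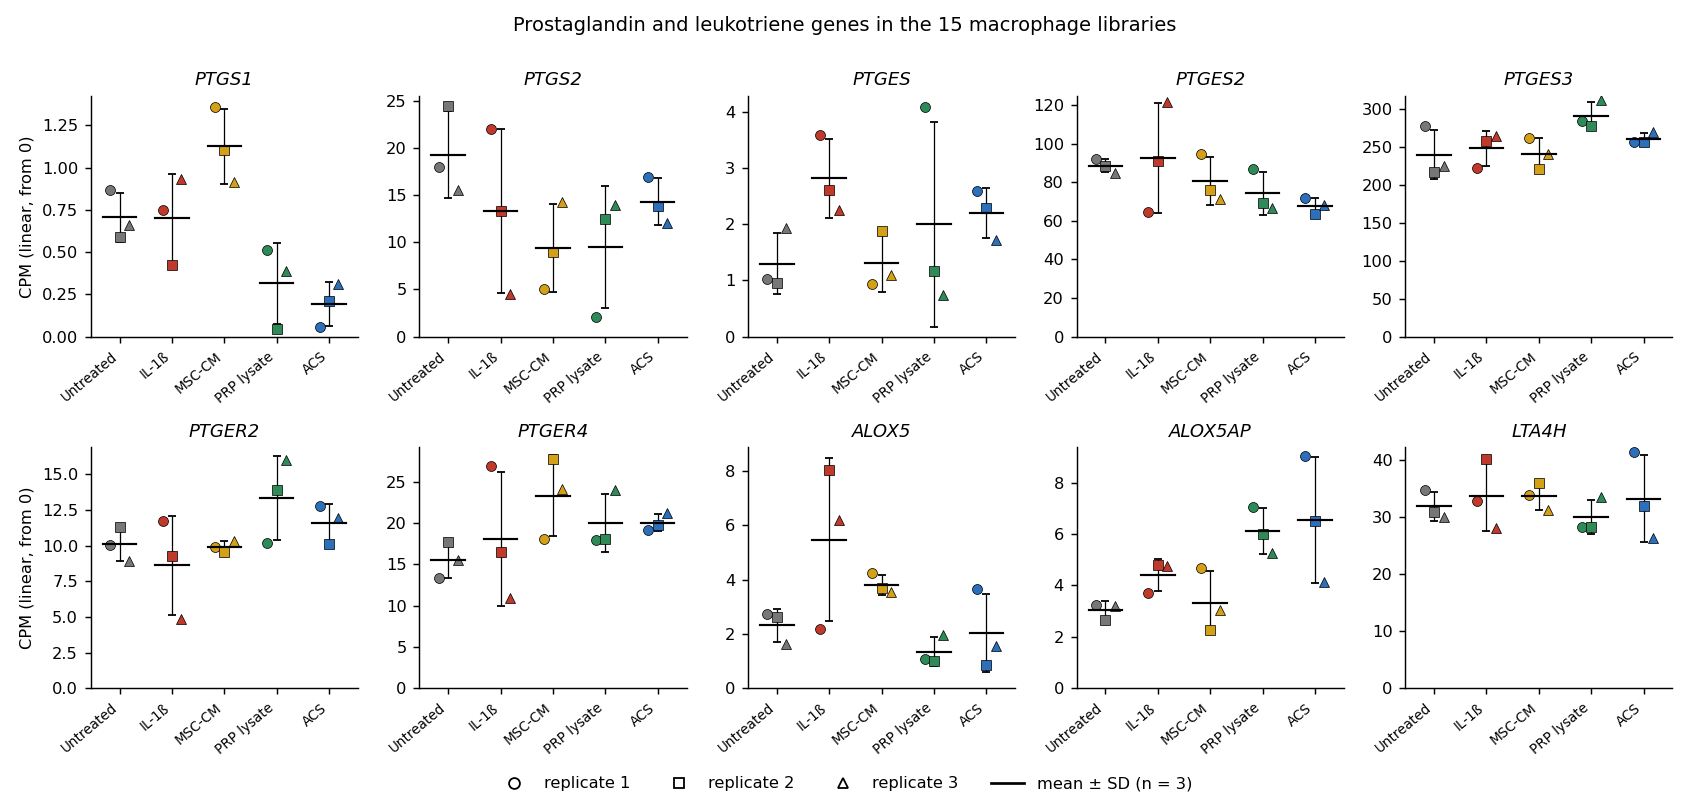
CPM (linear axis from 0) of the 10 prostaglandin and leukotriene genes in each library of the 5 conditions. Points are libraries, with a symbol per replicate number, and lines are means with SD (n = 3). PTGS2 ranged from 2.10 to 24.4 CPM, ALOX5 was highest in IL-1ß replicates 2 and 3, and ALOX5AP was higher in all PRP lysate libraries than in any untreated or IL-1ß library.

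PTGS2 encodes the inducible cyclooxygenase COX-2 (ENSECAG00000017181, EquCab3.0 chr5:20490127-20497265). It measured 18.0, 24.4 and 15.5 CPM in untreated replicates 1 to 3, and 22.0, 13.3 and 4.56 CPM with IL-1ß. Under MSC-CM the values were 5.01, 8.97 and 14.3 CPM, under PRP lysate 2.10, 12.5 and 13.9 CPM, and under ACS 17, 13.9 and 12.1 CPM. The means were thus highest without IL-1ß, and the IL-1ß range overlapped that of every other condition. The lowest library in each of the IL-1ß, MSC-CM and PRP lysate groups was the one that stood apart on the first component. By mean log2(CPM + 1) the order ran from untreated over ACS, IL-1ß and MSC-CM to PRP lysate, and each pair of neighbours overlapped.

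The difference of PTGS2 between IL-1ß and untreated macrophages was -0.71 on the log2 scale (95% CI -1.99 to 0.58, limma with Benjamini-Hochberg adjustment, adjusted p = 0.602), and -0.14 without the 3 libraries that stood apart. No rise with IL-1ß was thus detectable, and the interval includes a 2-fold fall. By the study's account the cells were washed and cultured 24 h more before RNA was taken, so earlier times were not sampled. Against IL-1ß, PTGS2 differed by -0.33 under MSC-CM, -0.52 under PRP lysate and 0.31 under ACS, with intervals that all crossed 0 (limma adjusted p from 0.694 to 0.841). Leaving out those 3 libraries gave -0.56, -0.36 and -0.26. The direction of these 3 differences depended on single libraries. It turned for MSC-CM without IL-1ß replicate 1 (0.12) or without MSC-CM replicate 1 (0.01), for PRP lysate without PRP lysate replicate 1 (0.21), and for ACS without IL-1ß replicate 3 (-0.26). The untreated libraries lay above all MSC-CM and all PRP lysate libraries, with differences of -1.04 (limma adjusted p = 0.443) and -1.23 (adjusted p = 0.421), which became -0.69 and -0.49 without the 3 libraries.

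PTGS1 encodes the constitutive cyclooxygenase COX-1, best known from platelets (ENSECAG00000009707, chr25:26423604-26444074). Its counts were low, with 21 to 34 reads in the untreated and 15 to 27 in the IL-1ß libraries. MSC-CM libraries held 60, 43 and 39 reads (1.36, 1.11 and 0.91 CPM), PRP lysate libraries 19, 2 and 11 reads (0.51, 0.048 and 0.39 CPM), and ACS libraries 2, 8 and 15 reads (0.055, 0.21 and 0.31 CPM). All ACS libraries therefore lay below all untreated, IL-1ß and MSC-CM libraries. The log2 difference between ACS and MSC-CM was -2.52 by edgeR (adjusted p = 0.187) and -2.50 by DESeq2 (adjusted p = 0.0251), and that between ACS and IL-1ß was -1.99 by edgeR (adjusted p = 0.203). The sum of the 6 platelet markers measured was 14.3 to 22.1 CPM with ACS, 14.1 to 42.9 CPM with PRP lysate, 12.5 to 16.4 CPM with IL-1ß, 8.56 to 11 CPM with MSC-CM and 4.77 to 7.79 CPM untreated. PPBP reached 39.1 CPM, ITGA2B 3.09 CPM and TREML1 4.34 CPM, all above 0 in every library, while GP1BA and GP9 stayed at or below 0.29 CPM and TUBB1 at or below 0.79 CPM. The part of platelet RNA in these differences was not tested.

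PTGES encodes the inducible microsomal prostaglandin E synthase that works with COX-2 (ENSECAG00000000943, chr25:33267969-33278913). It measured 1.02, 0.95 and 1.92 CPM in untreated macrophages, 3.59, 2.60 and 2.25 CPM with IL-1ß, and 0.93, 1.88 and 1.10 CPM with MSC-CM. All 3 IL-1ß libraries lay above all untreated and all MSC-CM libraries. The IL-1ß mean was 2.16 times the untreated mean, and the MSC-CM mean 0.463 times the IL-1ß mean. On the log2(CPM + 1) scale, which shrinks changes at such levels, the difference was 0.74 between IL-1ß and untreated (95% CI -0.00044 to 1.48, limma adjusted p = 0.386) and -0.73 between MSC-CM and IL-1ß (95% CI -1.47 to 0.0049, adjusted p = 0.705). On the recovered reads these were 1.13 and -1.24 by edgeR (adjusted p = 0.428 and 0.895) and 1.15 and -1.28 by DESeq2 (adjusted p = 0.328 and 0.960). Without the 3 libraries these differences were 0.85 (adjusted p = 0.0890) and -0.72 (adjusted p = 0.649), and both use the same IL-1ß libraries.

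With ACS, PTGES measured 2.59, 2.29 and 1.71 CPM, which overlapped IL-1ß. With PRP lysate it measured 4.08, 1.17 and 0.74 CPM, a 5.53-fold range within the group and the widest of this gene. Replicate 1, the library that stood apart, was the highest of all 15, and replicates 2 and 3 lay below all IL-1ß libraries. The difference between PRP lysate and IL-1ß was -0.49 (limma adjusted p = 0.511). It depended on single PRP lysate libraries, at -0.96 without replicate 1 (adjusted p = 0.0448, not called because it was under 2-fold on the shrunken scale) and -0.18 without replicate 3 (adjusted p = 0.930). It was -1.06 without the 3 libraries that stood apart (adjusted p = 0.0294), where PTGES was called and 4.52% of all tested genes were.

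The means of the other prostaglandin E synthases differed little between conditions. PTGES2, a membrane-associated synthase (ENSECAG00000016744, chr25:32053350-32058986), measured 85 to 92.0 CPM in untreated macrophages, 64.7, 91.1 and 122 CPM with IL-1ß, and 63.6 to 71.9 CPM with ACS. The ACS libraries lay below the untreated ones, with a difference of -0.38 (limma adjusted p = 0.719). PTGES3, which also serves as the co-chaperone p23 of HSP90 (ENSECAG00000013127, chr6:75106112-75125735), measured 283, 277 and 311 CPM with PRP lysate, above every library of the other conditions, whose values ran from 217 to 277 CPM. The margin was small, as untreated replicate 1 and PRP lysate replicate 2 differed by less than 1 CPM. The log2 differences of PRP lysate were 0.29 from untreated (95% CI 0.023 to 0.55, adjusted p = 0.327), 0.27 from MSC-CM (adjusted p = 0.316) and 0.23 from IL-1ß (adjusted p = 0.354), all by limma, and 0.30, 0.35 and 0.30 without the 3 libraries that stood apart. By edgeR the difference from IL-1ß was 0.14 (adjusted p = 0.761).

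PTGER2 encodes EP2 (ENSECAG00000009713, chr1:188166337-188177530). It measured 11.7, 9.27 and 4.88 CPM with IL-1ß and 10.2, 13.9 and 16.0 CPM with PRP lysate, so that the ranges overlapped. The difference was 0.63 (95% CI 0.082 to 1.17, limma adjusted p = 0.206), and 0.31 without IL-1ß replicate 3, which was the lowest of the 15 libraries. Without the 3 libraries that stood apart it was 0.48 (adjusted p = 0.127). Untreated macrophages measured 8.93 to 11.3 CPM, MSC-CM 9.57 to 10.3 CPM and ACS 10.1 to 12.8 CPM.

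PTGER4 encodes EP4 (ENSECAG00000011145, chr21:26144995-26156267). It measured 13.3, 17.7 and 15.5 CPM in untreated macrophages, and 18.0, 27.8 and 24.1 CPM with MSC-CM, 17.9, 18.1 and 24.0 CPM with PRP lysate and 19.2, 19.8 and 21.2 CPM with ACS. Every OT library thus lay above every untreated library. The IL-1ß libraries, at 26.9, 16.4 and 10.9 CPM, spanned nearly the whole range. The differences from untreated were 0.54 with MSC-CM (limma adjusted p = 0.351), 0.34 with PRP lysate (0.726) and 0.36 with ACS (0.881). Without the 3 libraries that stood apart the MSC-CM difference was 0.71 (adjusted p = 0.0290), under 2-fold.

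ALOX5 encodes 5-lipoxygenase (ENSECAG00000012930, chr1:81234692-81291456) and had the smallest adjusted p of the set. It measured 2.73, 2.61 and 1.62 CPM in untreated macrophages, 2.17, 8.05 and 6.19 CPM with IL-1ß, and 4.24, 3.68 and 3.53 CPM with MSC-CM. With PRP lysate it measured 1.07, 1.00 and 1.97 CPM, or 40, 42 and 56 reads, and with ACS 3.65, 0.87 and 1.57 CPM. All PRP lysate libraries lay below all IL-1ß and all MSC-CM libraries, while ACS overlapped both. IL-1ß replicates 2 and 3 were the highest of the 15 libraries, and IL-1ß replicate 1 lay within the untreated range.

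The mean of ALOX5 with PRP lysate was 0.247 times that with IL-1ß. The difference on the log2(CPM + 1) scale was -1.35 (SE 0.384, 95% CI -2.18 to -0.52, limma adjusted p = 0.0644). On the recovered reads it was -2.14 by edgeR (adjusted p = 0.0538) and -2.16 by DESeq2 (adjusted p = 0.00334). Leaving out 1 library gave limma differences from -1.80 without IL-1ß replicate 1 (adjusted p = 0.00930), where ALOX5 was called, to -1.05 without IL-1ß replicate 2 (adjusted p = 0.203). Without the 3 libraries that stood apart the difference was -1.13 (adjusted p = 0.153). The difference between PRP lysate and MSC-CM was -1.06 (95% CI -1.88 to -0.23, adjusted p = 0.18). Between ACS and IL-1ß it was -1.07 (95% CI -1.90 to -0.24, adjusted p = 0.154), from -1.52 without IL-1ß replicate 1 (adjusted p = 0.0242), where ALOX5 was called, to -0.76 without IL-1ß replicate 2 (adjusted p = 0.427). Between IL-1ß and untreated it was 0.85 (95% CI 0.020 to 1.68, limma adjusted p = 0.373) and 1.29 by edgeR (adjusted p = 0.353), but by limma 1.30 without IL-1ß replicate 1 (adjusted p = 0.104) and 0.54 without IL-1ß replicate 2 (adjusted p = 0.510). Without the 3 libraries the last 3 differences were -0.92, -0.93 and 0.71. For the fit without IL-1ß replicate 1, in which ALOX5 was called, the share of all tested genes called was not recorded.

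B cells also express ALOX5, and their 4 listed markers summed to 24.5 to 47.6 CPM with IL-1ß alone, wholly above the untreated libraries at 15.5 to 22.7 CPM. Under MSC-CM they summed to 22.2 to 29.8 CPM, under PRP lysate to 12 to 28.2 CPM and under ACS to 13.4 to 19.3 CPM. The 10 macrophage markers summed to 3525 to 6752 CPM with IL-1ß and 2072 to 4315 CPM with PRP lysate. The 6 listed markers of mast cells, basophils and eosinophils summed to 6.84 to 8.34 CPM with IL-1ß and 4.24 to 5.55 CPM untreated. They summed to 8.15 to 9.08 CPM with MSC-CM, 2.85 to 5.62 CPM with PRP lysate and 5.77 to 6.76 CPM with ACS. The neutrophil marker sum, given below, was higher with PRP lysate than with IL-1ß. The part of any of these cell types in the ALOX5 values was not tested.

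ALOX5AP encodes FLAP, which presents arachidonic acid to 5-lipoxygenase (ENSECAG00000012371, chr17:10060288-10080964). It measured 3.24, 2.63 and 3.22 CPM in untreated macrophages, 3.70, 4.80 and 4.74 CPM with IL-1ß, and 4.67, 2.26 and 3.04 CPM with MSC-CM. With PRP lysate it measured 7.07, 6.0 and 5.28 CPM and with ACS 9.03, 6.51 and 4.13 CPM. The PRP lysate libraries lay above all untreated, IL-1ß and MSC-CM libraries, and the ACS libraries above all untreated ones. Against IL-1ß the sign of its PRP lysate difference was opposite to that of ALOX5, and over the 15 libraries the r of both genes was -0.21, a description of libraries from at most 2 macrophage donors.

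The log2 differences of ALOX5AP were 0.82 between PRP lysate and untreated (95% CI 0.26 to 1.37, limma adjusted p = 0.137) and 0.86 between ACS and untreated (95% CI 0.31 to 1.41, adjusted p = 0.259). They were 0.75 between PRP lysate and MSC-CM (adjusted p = 0.145) and 0.79 between ACS and MSC-CM (adjusted p = 0.157). Against IL-1ß they were smaller, at 0.39 with PRP lysate (adjusted p = 0.475) and 0.44 with ACS. Without the 3 libraries that stood apart the PRP lysate differences were 0.72 from untreated, 0.87 from MSC-CM and 0.34 from IL-1ß, and the difference between ACS and MSC-CM was 1.00 (adjusted p = 0.0275) and was called, as were 2.54% of all tested genes. With all libraries but ACS replicate 1 that difference was 0.56, and that between ACS and untreated 0.63, and neither was called in any fit that left out 1 library. ALOX5AP is abundant in neutrophils, and the neutrophil marker sum was 486 to 546 CPM with PRP lysate and 530 to 759 CPM with ACS against 268 to 431 CPM in the other conditions. CSF3R made up nearly all of that sum, and the granule genes MPO, ELANE and LTF stayed at or below 3.81 CPM in every library. The part of neutrophils in the ALOX5AP values was not tested.

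LTA4H encodes the hydrolase that completes leukotriene B4 (ENSECAG00000008767, chr28:21971168-22003801). It measured 34.7, 30.9 and 30.0 CPM in untreated macrophages, 32.7, 40.1 and 28.0 CPM with IL-1ß, and 33.9, 35.9 and 31.2 CPM with MSC-CM. With PRP lysate it measured 28.3, 28.2 and 33.5 CPM and with ACS 41.4, 32 and 26.2 CPM. All conditions overlapped, and over the 10 comparisons the limma differences ran from -0.16 to 0.08, with confidence bounds from -0.55 to 0.46.

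**Figure D2:**
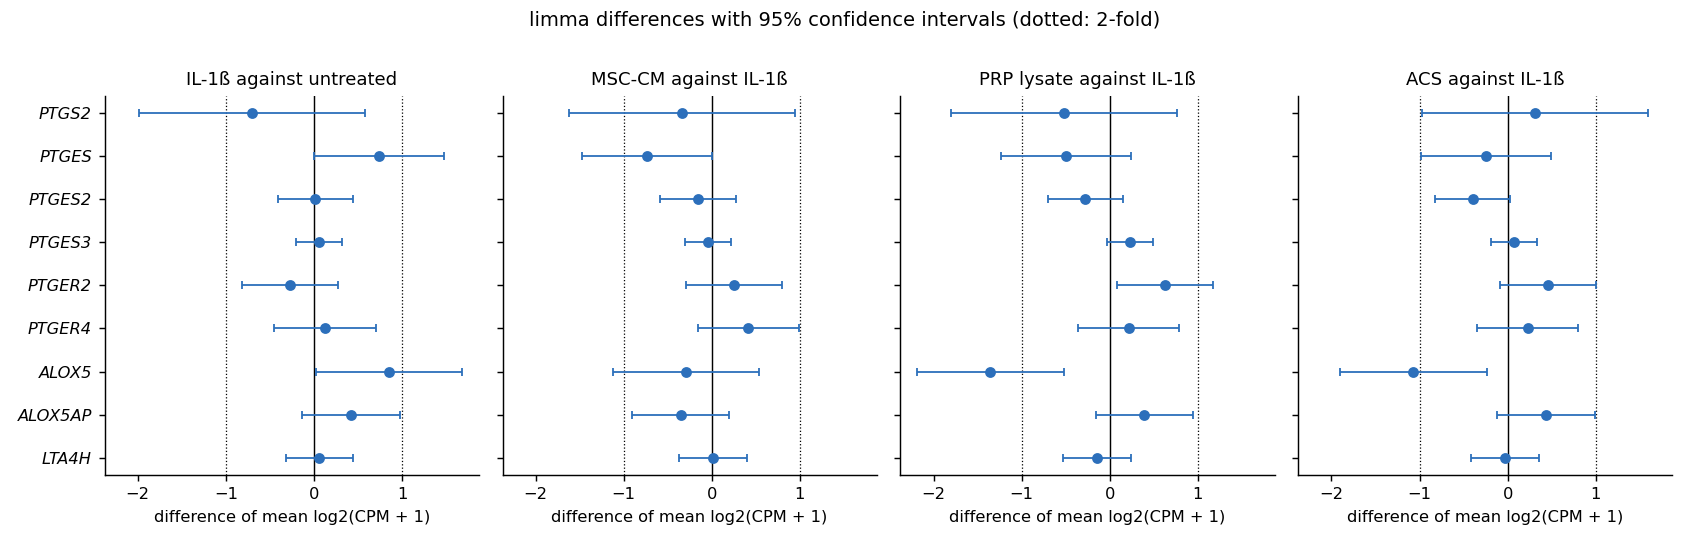
Differences of mean log2(CPM + 1) with 95% confidence intervals by limma for the 9 genes tested, in the comparison of IL-1ß with untreated macrophages and of each OT with IL-1ß. Dotted lines mark 2-fold. ALOX5 lay furthest from 0, at -1.35 with PRP lysate, and the intervals of PTGS2 were the widest, while LTA4H, PTGES2 and PTGES3 stayed within 2-fold.

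The counts for the set are given beside the share of all tested genes that met the same rule. Those shares leave out genes under the minimum, so PTGS1 is named apart from the 9 genes counted. Between IL-1ß and untreated macrophages 0 of 9 genes were called (0.292% of all tested genes were), ALOX5 had an unadjusted p of at most 0.05 (13% of all), and 2 of 9 had groups that did not overlap (16.2% of all), PTGES and ALOX5AP, both higher with IL-1ß. Between MSC-CM and IL-1ß 0 were called (0% of all), 0 had such an unadjusted p (5.6%), and only PTGES had groups apart (8.79%). Between PRP lysate and IL-1ß 0 were called (3.09%), ALOX5 and PTGER2 had an unadjusted p of at most 0.05 (17.5%), and 3 had groups apart (15%), PTGES3 and ALOX5AP higher and ALOX5 lower. Between ACS and IL-1ß 0 were called (2.21%), ALOX5 had an unadjusted p of at most 0.05 (20.5%), and 0 of 9 had groups apart (26.2%), although PTGS1 was lower. All these comparisons share the IL-1ß libraries.

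By edgeR the shares of all genes called in these 4 comparisons were 0.197%, 0%, 2.84% and 1.77%.

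Among the OTs, PRP lysate against MSC-CM called 0 genes of the set (2.61% of all), with PTGES3, ALOX5 and ALOX5AP at an unadjusted p of at most 0.05 (14.5%) and 3 with groups apart (19.4%), PTGES3 and ALOX5AP higher and ALOX5 lower, as was PTGS1. ACS against MSC-CM called 0 (1.23%), with ALOX5AP at such a p (13.5%) and 0 apart (35.1%), although PTGS1 was lower. PRP lysate against ACS called 0 (0.0946%), with 0 at such a p (5.19%) and PTGES3 apart (15.6%). Against untreated macrophages, MSC-CM called 0 (0.662%), with 0 at such a p (15.7%) and 3 apart (30.8%), PTGER4 and ALOX5 higher and PTGS2 lower, while PTGS1 was higher. PRP lysate called 0 (1.6%), with PTGES3 and ALOX5AP at such a p (12.8%) and 4 apart (18.6%), PTGES3, PTGER4 and ALOX5AP higher and PTGS2 lower, as was PTGS1. ACS called 0 (0.37%), with ALOX5AP at such a p (7.65%) and 3 apart (26.3%), PTGER4 and ALOX5AP higher and PTGES2 lower, as was PTGS1. By edgeR, which called 0 of the set in these 6 comparisons too, the shares of all genes called were 2.24%, 0.921%, 0.0804%, 0.453%, 1.39% and 0.154%, in the same order.

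The median log2 difference of the 9 genes was 0.06 between IL-1ß and untreated, where that of all tested genes was -0.07. Against IL-1ß it was -0.16 with MSC-CM (0.16 over all genes), -0.15 with PRP lysate (0.11) and 0.08 with ACS (0.13). These medians of all genes shifted to -0.00245, 0.020 and 0.013 after RLE size factors were applied.

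Several of the genes varied between libraries of the same condition together with the first principal component. Over the 15 libraries the Pearson r of log2(CPM + 1) with the score was 0.81 for PTGER2, 0.74 for PTGS2, 0.71 for PTGER4 and -0.84 for PTGES2, and between -0.39 and 0.24 for the other 6. Over the 12 libraries left without those that stood apart it was 0.62 for PTGER2, 0.67 for PTGER4 and -0.78 for PTGES2, but 0.017 for PTGS2. PTGER2 and PTGER4 had an r of 0.62 with each other and of -0.78 and -0.80 with PTGES2. The libraries came from at most 2 macrophage donors, and the component was computed from values that include these genes, so these are descriptions.

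**Figure D3:**
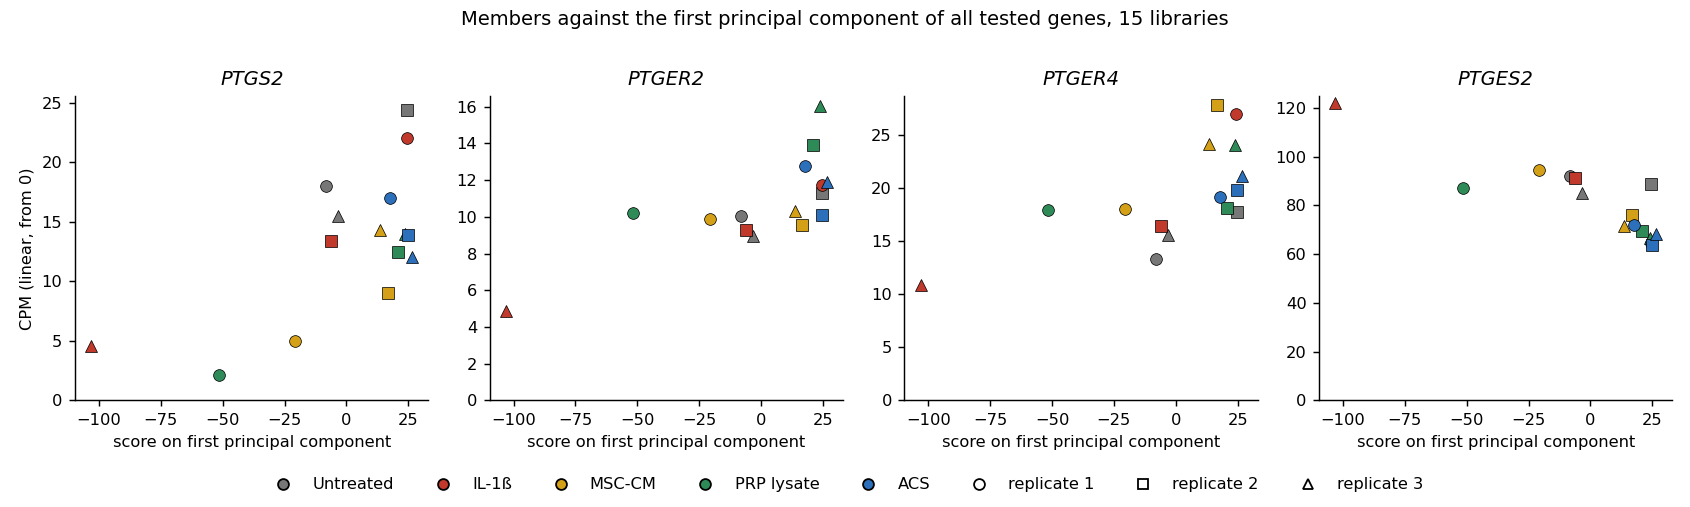
CPM (linear axis from 0) of PTGS2, PTGER2, PTGER4 and PTGES2 against the score of each of the 15 libraries on the first principal component of all tested genes. Colours are conditions and symbols are replicate numbers. IL-1ß replicate 3 (score -103) had the lowest PTGER2 and PTGER4 and the highest PTGES2, and the lowest 3 values of PTGS2 belonged to the 3 libraries furthest to the left.

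Other genes of the pathway were counted by role. Of 97 further pathway genes in 6 lists by role, 80 were listed and 65 tested. In 5 of the 10 comparisons limma called 0 of them. An unadjusted p of at most 0.05 was there reached by 8 for IL-1ß against untreated (13% of all tested genes), 4 for MSC-CM against IL-1ß (5.6%), 10 for PRP lysate against ACS (5.19%), 13 for MSC-CM against untreated (15.7%) and 4 for ACS against untreated (7.65%). In the other 5 the calls were all lower, and such a p was reached with PRP lysate by 15 against IL-1ß (17.5%), 15 against MSC-CM (14.5%) and 11 against untreated (12.8%), and with ACS by 16 against IL-1ß (20.5%) and 10 against MSC-CM (13.5%). Of the 17 tested genes in the list for release and re-esterification of arachidonic acid, 3 (PLA2G4A, PLA2G2D and PLA2G7) fell with PRP lysate against IL-1ß and against MSC-CM and the first 2 fell against untreated macrophages. PLA2G7 belongs to the phospholipase A2 family but acts on platelet-activating factor and is not known as an arachidonate-releasing enzyme. Of the 8 tested lipoxygenases and leukotriene C4 genes 1 fell with ACS against IL-1ß and against MSC-CM. Of all tested genes, 2.02%, 1.81% and 1.33% fell in those 3 PRP lysate comparisons, and 0.98% and 0.636% in those 2 ACS comparisons. In the lists of other prostanoid synthases (6 tested), other prostanoid receptors (6), receptors for leukotrienes and related mediators (4) and the cAMP relay behind EP2 and EP4 (24), 0 genes were called in any comparison. By limma with the adjusted p alone, which 4.94%, 4.22% and 2.59% of all genes passed with PRP lysate against IL-1ß, MSC-CM and untreated, ARRB1 and GPR18 were added, which are named here after their values were seen. ARRB1, the beta-arrestin 1 gene, was lower with PRP lysate than with IL-1ß, MSC-CM and untreated (-0.84, -0.74 and -0.96, adjusted p = 0.0165, 0.0345 and 0.0121), and GPR18 was higher with PRP lysate than with MSC-CM (0.60, adjusted p = 0.0411).

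PLA2G4A encodes the cytosolic phospholipase A2 that releases arachidonic acid. It measured 3.65, 9.42 and 11.2 CPM with PRP lysate against 47.1, 33.8 and 12.9 CPM with IL-1ß, 25.0, 23.5 and 33.1 CPM with MSC-CM and 31.8, 39.7 and 21.3 CPM untreated. With ACS it measured 18.9, 14.3 and 13.5 CPM, below every MSC-CM and untreated library, and PRP lysate against ACS was not called. All PRP lysate libraries were lowest, although IL-1ß replicate 3 and ACS replicate 3 came close. PLA2G4A fell by 1.77 against IL-1ß (95% CI -2.71 to -0.82, limma adjusted p = 0.0340), by 1.73 against MSC-CM (0.0419) and by 1.88 against untreated (0.0379). The call was lost in 4, 5 and 4 of the 6 fits that each left out 1 library, with adjusted p up to 0.117, 0.184 and 0.18, and in all 3 comparisons when only the 2 groups compared were fitted (adjusted p = 0.408, 0.0775 and 0.118). With the replicate number as a block the adjusted p against MSC-CM was 0.182, and same-numbered MSC-CM and PRP lysate libraries deviated together from their group means. With the 3 libraries that stood apart left out PLA2G4A fell by 1.86, 1.36 and 1.46 (adjusted p = 0.000864, 0.00583 and 0.00365).

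PLA2G7 encodes the secreted platelet-activating factor acetylhydrolase. It measured 6.72, 10.5 and 6.76 CPM with PRP lysate, below every other library, against 22.6, 25.2 and 18.2 CPM with IL-1ß. PLA2G7 fell by 1.37 (95% CI -1.89 to -0.84, limma adjusted p = 0.00504), and by 1.51 against MSC-CM (adjusted p = 0.00313). With ACS, PLA2G7 measured 13.2, 12.3 and 16.3 CPM, also below every IL-1ß and MSC-CM library, and PRP lysate against ACS was not called. PLA2G2D encodes a secreted phospholipase A2. It measured 106, 43.8 and 55.7 CPM with PRP lysate against 189.8, 262 and 303 CPM with IL-1ß, and fell by 1.94 (95% CI -2.67 to -1.20, adjusted p = 0.00457). PLA2G2D also fell by 2.22 against MSC-CM (adjusted p = 0.00221) and by 2.20 against untreated (adjusted p = 0.00354), while ACS libraries measured 147, 281 and 384 CPM. Both genes kept the call in each fit that left out 1 library and without the 3 that stood apart. With only the 2 groups compared in the fit, PLA2G7 lost both calls (adjusted p = 0.137 against IL-1ß and 0.0506 against MSC-CM) and PLA2G2D the one against IL-1ß (adjusted p = 0.105). The sum of the macrophage markers ran from 2072 to 4315 CPM with PRP lysate and from 3525 to 6752 CPM in the other conditions, and its part in these falls was not tested.

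ALOX15B encodes a 15-lipoxygenase. It measured 0.74, 2.05 and 1.65 CPM with ACS against 6.70, 5.34 and 8.09 CPM with IL-1ß and 5.37, 5.76 and 8.52 CPM with MSC-CM. All ACS libraries were lower, and untreated macrophages, at 0.64, 1.99 and 2.53 CPM, overlapped them. The PRP lysate libraries, at 4.19, 0.84 and 1.97 CPM, were likewise below every IL-1ß and MSC-CM library. ALOX15B fell by 1.66 with ACS against IL-1ß (95% CI -2.48 to -0.84, limma adjusted p = 0.0322) and by 1.62 against MSC-CM (adjusted p = 0.0483). Of 14 alternatives the call was lost in 9 against IL-1ß and in 10 against MSC-CM. By edgeR the adjusted p was 0.0621 and 0.120, with a pseudocount of 0.1 it was 0.0615 and 0.0974, and the call was lost in 5 and in all 6 of the fits that left out 1 library, with adjusted p up to 0.121 and 0.233. ALOX15B without the 3 libraries that stood apart fell by 1.53 and by 1.73 (adjusted p = 0.0196 and 0.00903).

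**Figure D4:**
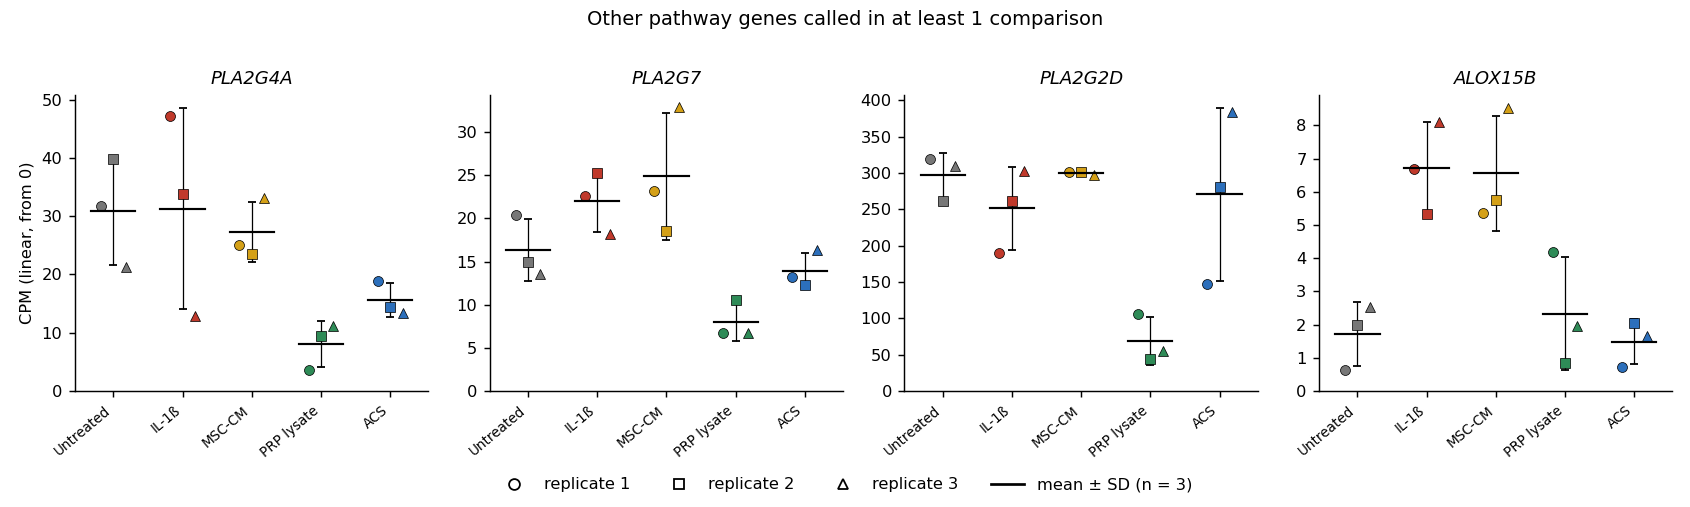
CPM (linear axis from 0) of the 4 further pathway genes called in at least 1 comparison, by library, with mean and SD (n = 3). PRP lysate libraries held 3.65 to 11.2 CPM of PLA2G4A, 6.72 to 10.5 CPM of PLA2G7 and 43.8 to 106 CPM of PLA2G2D, the lowest values of each gene, and ACS libraries held 0.74 to 2.05 CPM of ALOX15B.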

How the data were processed

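Oligo(dT)-enriched RNA was sequenced in 15 libraries. The authors deposited CPM per gene, obtained in Partek with STAR 2.7.3 (EquCab3.0) and HTSeq after read trimming. The strand setting is not given in the sources used here, and no gene of the set overlaps another listed gene. The study gives a further 24 h of culture after washing, and the sample descriptions give none.

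The members and gene lists were chosen with earlier results of these data known. limma 3.58.1 with an intensity trend was run on log2(CPM + 1) for genes averaging 1 CPM or more over the libraries, with the 5 conditions in 1 model (residual degrees of freedom 10) and Benjamini-Hochberg adjustment within each comparison over all 11628 genes. Each value divided by the CPM of 1 read gave the reads (99.5% of values lay within 0.05 reads of a whole number), which served edgeR 4.0.16 (13675 genes tested) and DESeq2 1.42.0. edgeR called between 0 and 388 genes in a comparison, for example 388 for PRP lysate against IL-1ß where limma called 359.

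All 10 genes are named. Of the other pathway genes, those called in at least 1 comparison are named, and genes of like pattern only for members called by limma, of which there were 0. Symbols missing from the 97 were not used here. Intervals do not cover more than the spread between these libraries. The recovery of reads and the calls by limma, edgeR and DESeq2 were tested on simulated data, and the other steps were not. Sequences were not used here. R 4.3.3, Python 3.11.15 and matplotlib 3.10.9 were used.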

Additional observations from a re-analysis of the deposited data

How the results depend on the processing

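The count of genes called was 0 in all 10 comparisons, and stayed 0 with RLE size factors, a pseudocount of 0.1, no filter, no fold threshold, edgeR, and only the 2 groups compared. It became 1 with DESeq2 for PRP lysate against IL-1ß (ALOX5) and for ACS against MSC-CM (PTGS1). Leaving out 1 library gave 0 to 1 for PRP lysate against IL-1ß and for ACS against IL-1ß (1, ALOX5, without IL-1ß replicate 1), and 0 to 0 elsewhere. In an alternative chosen after seeing the data, without the 3 libraries that stood apart, it was 1 for PRP lysate against IL-1ß (PTGES) and 1 for ACS against MSC-CM (ALOX5AP). The cause of these shifts was not tested.

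Of 29 differences followed for single genes, 26 kept their direction in every alternative. The others are those of PTGS2 against IL-1ß. With leave-one-out they ran from -0.90 to 0.12 with MSC-CM, from -1.09 to 0.21 with PRP lysate and from -0.26 to 0.76 with ACS. The ACS value was -0.26 also without the 3 libraries.

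Same-numbered MSC-CM and PRP lysate libraries deviated together in all 3 pairs (r = 0.63, 0.26 and 0.42). Replicate 1 of both groups stood apart on the first component, and no label says which donor a number stands for. Whether these libraries are paired is therefore not known. Over all conditions r was above 0.1 in 11 of 18 same-numbered pairs (-0.77 to 0.63), and the own number gave the best match in 11 of 36 cases. With the replicate block 0 genes of the set were called in the 6 comparisons where it could be fitted. ACS libraries carry no number in their titles. Over all genes the block moved the calls from 304 to 171 for PRP lysate against MSC-CM, from 359 to 197 for PRP lysate against IL-1ß and from 34 to 6 for IL-1ß against untreated. PLA2G4A lost its calls under it (adjusted p = 0.145, 0.182 and 0.196), as did PLA2G7 against IL-1ß (0.0560). With only the 2 groups compared, PLA2G4A lost all 3 calls (adjusted p from 0.0775 to 0.408), PLA2G7 both (0.137 and 0.0506), and PLA2G2D (0.105) and ALOX15B (0.0832) those against IL-1ß. With no filter, PLA2G4A (0.0557 to 0.0676) and ALOX15B (0.0502 and 0.0741) lost all their calls, and with RLE size factors ALOX15B lost that against MSC-CM (0.0656).

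Depth limits PTGS1, at 2 to 60 reads per library. For PTGS2 and ALOX5 the spread between libraries leaves differences of 2-fold within the intervals of every comparison.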
